A study of Mus musculus with 93 samples.

Results

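The genes described here are 6 EphA receptors (Epha1, Epha2, Epha3, Epha4, Epha5 and Epha7) and 4 ephrin-A ligands (Efna1, Efna3, Efna4 and Efna5), taken by name from a table of 24514 gene symbols, in which all 10 were present. Their levels and the share of libraries with a read were followed across 4 groups of sorted cardiac progenitor cells (CPCs). GFP+ cells carry the Hcn4-GFP reporter of the first heart field (FHF), and RFP+ cells carry the red Ai9 reporter switched on by Tbx1-Cre, which labels the second heart field (SHF) and permanently marks the descendants of any cell that once expressed Tbx1. Both reporters were present in every group, in Hcn4-GFP; Tbx1-Cre; Ai9 mouse embryos and in 1 embryonic stem cell (ESC) line of that genotype. The embryo cells gave 5 GFP+ and 4 RFP+ libraries, and spheroids grown from the ESC line gave 38 GFP+ and 46 RFP+ libraries at day 5.5. The sample titles place the embryos at E8.5 (embryonic day), whereas the extraction protocol gives E7.75. Each library was made from the RNA of 10 sorted cells in 1 well. Wells were not tied to embryos or differentiations in the labels, so n counts wells and p-values measure the spread between wells, which may be partly technical.

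Eph receptors are receptor tyrosine kinases, and their ligands, the ephrins, are also bound to cell membranes, so signalling needs contact between cells. Ephrin-A ligands are held by a lipid anchor and bind mainly EphA receptors, whereas ephrin-B ligands span the membrane and bind mainly EphB receptors, with EphA4 accepting both kinds. Binding can signal into both cells and is best known for repulsion, sorting of cells at tissue boundaries and guidance of migrating cells. In the embryo these genes act in gastrulation, somite formation, vessel growth and the shaping of the heart. EphA2 was picked by the study as a surface marker of RFP+ cells together with Cxcr4, a chemokine receptor, from the spheroid libraries, so its difference there is not independent evidence. The study also reported the difference of both genes by qPCR in vivo and in vitro, and sorted cells by EphA2 in flow cytometry. The in vivo qPCR it details compared Mesp1-Cre RFP+ with RFP- cells of the pharyngeal arch, at a later stage than the embryos here. It reported raised Epha2 in the developing heart, whereas Cxcr4 followed markers of undifferentiated progenitors. The flow cytometry used Isl1-Cre RFP+ cells, so both differ from the populations compared here.

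The sequences just before the transcription starts of Epha2, Epha4, Epha7 and Efna5 are shown because these 4 genes had the clearest differences in level between groups. They are 250 bases each, read 5′ to 3′ on the gene's own strand, from RefSeq promoters of GRCm38.p6, a table in which all 10 genes were found. Capitals mark the GC box, GGGCGG or its reverse complement.
Epha2, plus strand, chr4:141300971-141301220: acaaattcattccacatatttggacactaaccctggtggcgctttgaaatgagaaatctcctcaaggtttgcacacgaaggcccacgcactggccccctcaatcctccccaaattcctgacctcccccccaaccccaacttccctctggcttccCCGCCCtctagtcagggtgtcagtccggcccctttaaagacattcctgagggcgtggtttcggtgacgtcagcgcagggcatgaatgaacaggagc
Epha4, minus strand, chr1:77515089-77515338: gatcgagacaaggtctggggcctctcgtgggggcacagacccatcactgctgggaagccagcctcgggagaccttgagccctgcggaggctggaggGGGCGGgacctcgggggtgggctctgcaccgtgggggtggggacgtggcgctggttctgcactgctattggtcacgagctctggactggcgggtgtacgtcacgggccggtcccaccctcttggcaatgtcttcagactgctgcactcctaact
Epha7, plus strand, first of 2 listed starts, chr4:28812881-28813130: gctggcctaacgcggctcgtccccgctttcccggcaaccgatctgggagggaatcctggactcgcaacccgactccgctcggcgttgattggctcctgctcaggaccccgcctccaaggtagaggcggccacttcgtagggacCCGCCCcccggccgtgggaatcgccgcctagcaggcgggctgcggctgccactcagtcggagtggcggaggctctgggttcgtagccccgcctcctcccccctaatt
Efna5, minus strand, chr17:62881318-62881567: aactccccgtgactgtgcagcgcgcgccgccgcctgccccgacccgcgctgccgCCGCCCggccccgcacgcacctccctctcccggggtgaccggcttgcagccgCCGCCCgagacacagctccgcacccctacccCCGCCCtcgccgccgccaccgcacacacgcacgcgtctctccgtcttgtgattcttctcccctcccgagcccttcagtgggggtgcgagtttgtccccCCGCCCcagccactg
The Efna5 window held 4 GC boxes and had a G+C content of 74.8%, against 1 GC box in each of the other windows, whose G+C content ran from 55.6% in Epha2 through 66% in Epha4 to 69.2% in Epha7. Of all 32851 windows of this length, 32.7% held a GC box, and their median G+C content was 52.4%. The motifs of 3 cardiac transcription factor families were searched on both strands and were in none of these 4 windows. The motif of GATA factors (AGATAA) was found in 9.99% of all windows. The motif of T-box factors (AGGTGTG) was found in 5.1%. The motif of NKX2-5 (TNAAGTG) was found in 10.1%. Among the members not shown, the windows of Epha3 and Efna4 each held a GATA motif, and that of Efna3 held an NKX2-5 motif. The GC boxes of Efna5 did not overlap each other.

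The receptors lie apart from each other in the genome (GRCm38), with Epha2 at chr4:141301240-141329384 and Epha7 at chr4:28813131-28967499 on the plus strand and Epha4 at chr1:77367185-77515088 on the minus strand. Epha1 (chr6:42358487-42373268), Epha3 (chr16:63543534-63864175) and Epha5 (chr5:84054761-84417382) are also on the minus strand. Of the ligands, Efna5 is at chr17:62604184-62881317, and Efna1, Efna3 and Efna4 sit together within 66.3 kb of chromosome 3, at chr3:89271733-89281142, chr3:89313899-89322965 and chr3:89333390-89338028, all on the minus strand. Exons of Epha1 overlap exons of Zyx on the opposite strand, those of Efna3 an antisense transcript (Gm15998) and those of Efna4 another (4731419I09Rik). The cDNA was cut with Tn5, which keeps no record of strand, so reads in the shared stretches cannot be told apart.

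Library totals ran from 712732 to 2525460 counts in embryo GFP+ libraries and from 1246546 to 1479957 in embryo RFP+ libraries. Embryo GFP+ libraries held 6189 to 8302 detected genes, against 10263 to 13052 in embryo RFP+ libraries and 11434 to 14671 in spheroid libraries. In the spheroid set, 1 GFP+ library of 6288 counts was left out, and 2 pairs of neighbouring RFP+ wells in columns 3 and 4 with a chi-square per degree of freedom of 1.37 and 1.41, under a limit of 1.5, were each summed, which left 37 GFP+ libraries of at least 828193 counts and 44 RFP+ libraries of at least 540597. The other 5 row pairs of those columns, at 1.51 to 2.39, were kept as separate libraries in n = 44, although the other pairs of RFP+ wells started at 2.68. In the labels' check, Hcn4 was read in 5 of 5 embryo GFP+ and 1 of 4 embryo RFP+ libraries, and Tbx1 in 0 of 5 and 3 of 4. In spheroids, Hcn4 reached 7.54 ± 4.32 CPM in GFP+ and 0.428 ± 0.655 CPM in RFP+ libraries (SD, n = 37 and 44), and Tbx1 reached 0.0312 ± 0.134 and 2.46 ± 1.68 CPM. CPM, a gene's count per 1000000 counts on genes in the same library, is the scale of all levels here unless stated otherwise.

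Markers of several cell types differed between the populations, though not always in the same direction in embryos and spheroids. The summed level of 10 FHF and cardiomyocyte genes was 18167 to 41378 CPM in embryo GFP+ libraries and 811 to 1718 CPM in embryo RFP+ libraries, but only 34.3 to 1041 CPM in spheroid GFP+ and 13.5 to 119 CPM in spheroid RFP+ libraries. The 7 endothelial markers summed to 2.04 to 101 CPM in embryo GFP+ libraries, with Pecam1, Cdh5 and Emcn at 0, against 188 to 448 CPM in embryo RFP+ libraries with all 7 read. In spheroids the endothelial sum was 11.7 to 68.1 CPM in GFP+ and 6.67 to 211 CPM in RFP+ libraries. The sum of 9 SHF genes was 81.6 to 327 CPM in embryo GFP+ and 282 to 406 CPM in embryo RFP+ libraries, and 91.1 to 266 and 183 to 376 CPM in the spheroid populations. The 4 paraxial mesoderm markers reached 34.1 to 90.7 CPM in embryo RFP+ libraries and 69 to 265 CPM in spheroid RFP+ libraries, with medians of 0 and 18.5 CPM in the GFP+ libraries. Embryo GFP+ libraries held 1 of 7 endoderm and 1 of 7 neural markers, whereas embryo RFP+ libraries held 6 and 7 of them, at sums of 2.7 to 181 and 18.9 to 85.4 CPM. Blood markers reached 1156 CPM in 1 embryo RFP+ library, against a median of 0.683 CPM over the 4. In spheroids, endoderm markers had a median sum of 131 CPM in GFP+ and 38.5 CPM in RFP+ libraries, the reverse of the embryo direction. Neural markers differed little there, with median sums of 90.4 CPM in spheroid GFP+ and 81.6 CPM in spheroid RFP+ libraries. Pluripotency markers had median sums of 149 and 36.4 CPM in spheroid GFP+ and RFP+ libraries, with 4 of 5 tested markers called higher in GFP+. The part of these differences in the Eph and ephrin results was not tested. In pools of 10 cells, fewer cells of a type and less RNA per cell cannot be told apart.

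In embryos, EphA7 was the receptor that differed between the heart field populations, and it was higher in GFP+ cells. Epha7 was read in all 9 embryo libraries. GFP+ libraries 1 to 5 held 194, 213, 167, 60.9 and 443 CPM, and RFP+ libraries 1 to 4 held 54, 27.3, 25.7 and 13.5 CPM. The lowest GFP+ library was thus above the highest RFP+ library, though by a small margin. The means were 216 ± 140 CPM in GFP+ and 30.1 ± 17.1 CPM in RFP+ libraries (SD, n = 5 and 4). The log2 fold change of RFP+ over GFP+ was -2.86 (SE 0.68), with an adjusted p of 0.0172 in edgeR's quasi-likelihood test over 8503 genes. Epha7 was the 1 member of 6 tested that passed an adjusted p of 0.1, where 10.1% of all tested genes passed, 6.21% with the higher level in RFP+ and 3.88% with the higher level in GFP+. The median log2 fold change of the 6 was 1.27, beside 0.094 over all tested genes. Of the 6, Epha2 and Efna4 were each read in 1 of 5 GFP+ and 4 of 4 RFP+ libraries. These 2 genes met the low-count filter mainly through the RFP+ group, so the median is not read as a trend of the family. Epha7 was also called when any 1 embryo library was left out, with log2 fold changes from -3.27 to -2.43.

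EphA2, which is found in nascent mesoderm and many epithelia, was read mainly in the RFP+ embryo libraries. Epha2 held 0, 9.11, 0, 0 and 0 CPM in GFP+ libraries 1 to 5, and 17.5, 7.51, 48.9 and 23 CPM in RFP+ libraries 1 to 4. The reads of the GFP+ population came from 1 library (23 reads), which lay above the lowest RFP+ library, so the groups overlapped. Its log2 fold change was 3.50 with a large SE of 1.71, and the adjusted p was 0.351 (edgeR, n = 5 and 4). The means of log2 CPM (prior count 2) differed by 3.37, with an unadjusted exact permutation p of 0.0238 (two-sided, n = 5 and 4), in a design whose smallest p is 0.00794. With a prior count of 0.5 the difference was 4.91, so its size depends on the prior count. Epha2 was 1 of 9 members compared in this way in embryos, of which 5 had an unadjusted permutation p under 0.05, with no such test over all genes. The ratio of the mean CPM, 24.2 in RFP+ over 1.82 in GFP+, was 13.3 and rested on that 1 GFP+ library. Cxcr4, the other surface marker, held reads in 1 of 5 GFP+ and 4 of 4 RFP+ embryo libraries, at means of 1.68 ± 3.76 and 2.04 ± 1.22 CPM.

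EphA4, a receptor of broad binding that marks segment boundaries in the early embryo, was read in some GFP+ embryo pools at a high level and in others not at all. Epha4 held 0, 135, 0, 108 and 0 CPM in GFP+ libraries 1 to 5. The RFP+ libraries 1 to 4 held 62.7, 38.9, 23.3 and 81.1 CPM. The 2 GFP+ libraries with reads (341 and 245 counts) exceeded all 4 RFP+ libraries, and the other 3 held none. The log2 fold change of RFP+ over GFP+ was 0.011 (SE 1.68, adjusted p = 0.998 by edgeR), and its sign flipped with DESeq2's scaling and when single libraries were left out. The mean of log2 CPM was 2.54 higher in RFP+ libraries, with an exact permutation p of 0.19 (two-sided, n = 5 and 4).

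The remaining 3 receptors were near or at 0 in embryo cells. Epha5 had no read in any of the 9 libraries. Epha3 had none in the 5 GFP+ libraries and 3, 3, 0 and 2 reads in the 4 RFP+ libraries, a mean of 1.4 ± 1 CPM (SD, n = 4), below the 3-count floor of 2.61 CPM for the GFP+ group. The difference in mean log2 CPM was 0.92 (exact permutation p = 0.0476, two-sided, unadjusted). Epha1 was at 0 or 1 read in 4 GFP+ libraries and held 44 reads (48.1 CPM) in the fifth, and RFP+ libraries held 1, 0, 0 and 3 reads. The exact permutation p between the populations was 0.96 (two-sided, n = 5 and 4). Zyx, whose exons overlap those of Epha1, was at 30.4 ± 44.4 CPM in GFP+ and 81.3 ± 34.9 CPM in RFP+ libraries.

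**Figure D1:**
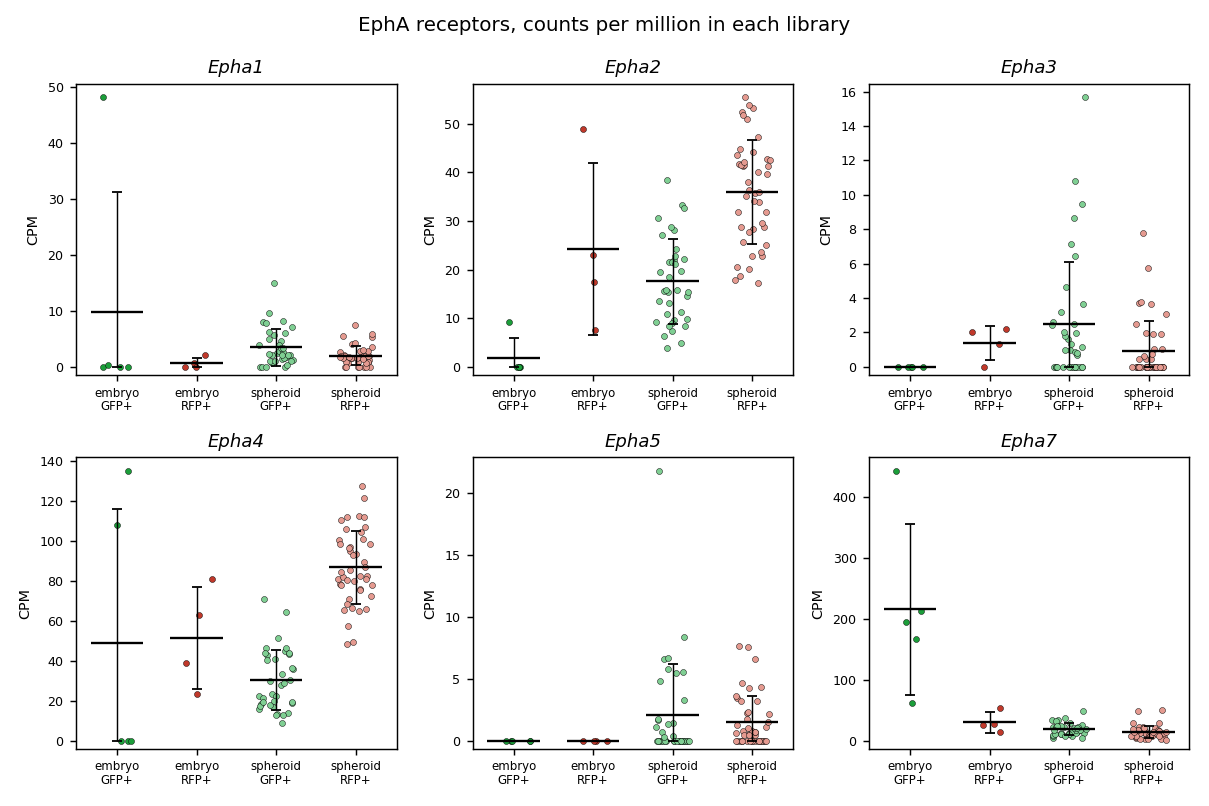
Levels of the 6 EphA receptors in CPM (vertical axes, each panel on its own linear scale) in every library of the 4 groups, with horizontal lines at the mean and bars of 1 SD (n = 5, 4, 37 and 44 from left to right; lower bars stop at 0). Epha7 stands highest in embryo GFP+ cells, with a mean of 216 CPM, and Epha2 and Epha4 stand higher in spheroid RFP+ than in spheroid GFP+ cells.

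Among the ligands, ephrin-A5 separated the embryo populations in the opposite direction to EphA7. Efna5 held 50, 24.6, 0, 45.9 and 13.1 CPM in GFP+ libraries 1 to 5, and 177, 139, 245 and 103 CPM in RFP+ libraries 1 to 4. Every RFP+ library was above every GFP+ library, by about a doubling at the closest pair. The means were 26.7 ± 21.3 CPM in GFP+ and 166 ± 60.8 CPM in RFP+ libraries (SD, n = 5 and 4). Efna5 had a log2 fold change of 2.58 (SE 0.98), and the adjusted p of 0.172 in edgeR was above the threshold. Leaving out GFP+ library 3, in which Efna5 had no read, gave 2.27 with an edgeR adjusted p of 0.0443, and the other 8 fits without 1 library gave adjusted p from 0.13 to 0.452. DESeq2 gave 2.48 with an adjusted p of 0.0669, edgeR without a filter gave 0.0986, and edgeR with total counts or DESeq2's size factors gave 0.155 and 0.198. The exact permutation p on log2 CPM was 0.0238 (two-sided, unadjusted, n = 5 and 4). Epha7 and Efna5 were the 2 of 6 tested members whose CPM did not overlap between the embryo populations, beside 17.3% of all tested genes.

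Ephrin-A4 was read in all RFP+ embryo libraries and in 1 GFP+ library. Efna4 held 0, 0, 30.9, 0 and 0 CPM in GFP+ libraries 1 to 5, and 45.2, 28.7, 24.1 and 33.1 CPM in RFP+ libraries 1 to 4. The 1 GFP+ library with reads (22 counts) reached the range of the RFP+ libraries, and the edgeR call depended on this library. The log2 fold change of Efna4 was 2.53 (SE 1.91, adjusted p = 0.669 by edgeR). Its means of log2 CPM differed by 3.75, with an unadjusted exact permutation p of 0.0238 (two-sided, n = 5 and 4). With a prior count of 0.5 this difference was 5.32. The ratio of the mean CPM, 32.8 in RFP+ over 6.17 in GFP+, was 5.31. The adjusted p was 0.0149 by edgeR without GFP+ library 3, a value that depends on removing the only GFP+ library with reads. That same library held no Efna5 read.

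Ephrin-A1, a ligand also made by endothelium, had close means in the embryo populations. Efna1 held 73.5, 65.3, 5.61, 0 and 64.5 CPM in GFP+ libraries 1 to 5, and 67.1, 65.5, 0 and 40.5 CPM in RFP+ libraries 1 to 4. Each population had a library at 0, GFP+ library 3 was also low, and the other 6 overlapped in range. The log2 fold change was -0.0010 (SE 1.59, adjusted p = 1 by edgeR), an interval wide enough to hold large differences of either sign. Efna3 was read in 1 library, GFP+ library 1, with 4 reads, and no fold is given because both group means were under the floor.

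**Figure D2:**
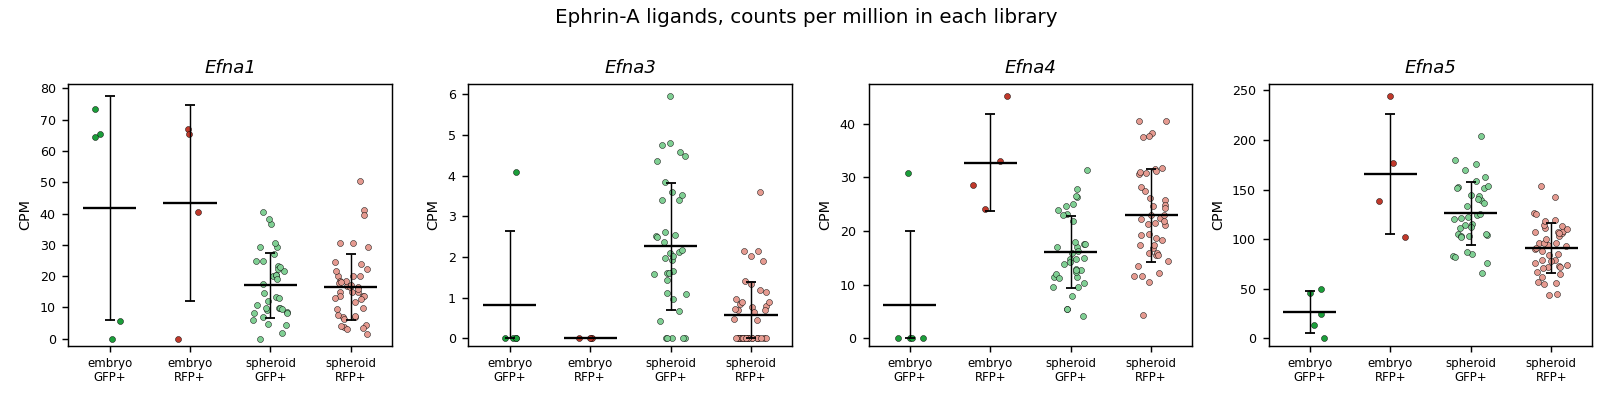
Levels of the 4 ephrin-A ligands in CPM (vertical axes, each panel on its own linear scale) in every library of the 4 groups, with the mean as a horizontal line and bars of 1 SD (n = 5, 4, 37 and 44 from left to right; lower bars stop at 0). The 4 embryo RFP+ libraries lie above the 5 embryo GFP+ libraries for Efna5, whereas in spheroids the GFP+ libraries have the higher Efna5 mean, 126.2 against 91.3 CPM.

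In spheroids, where 37 GFP+ and 44 RFP+ libraries were compared, 5 of the 6 tested members passed an adjusted p of 0.1 in edgeR. Of all 9988 tested genes, 77.7% passed, 37.8% with the higher level in RFP+ and 39.9% with the higher level in GFP+, so a call alone does not set a gene apart. Epha4, Epha2 and Efna4 were higher in RFP+ cells, and Efna5 and Epha7 were higher in GFP+ cells. The median log2 fold change of the 6 tested members was 0.21, beside -0.015 over all tested genes, and the median size of a change over all tested genes was 0.46. By the well names, all RFP+ wells were in plate columns 1 to 6 and all GFP+ wells in columns 7 to 11. The effects of population and of plate position cannot be told apart.

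EphA4 had the largest fold change among the 6 members tested by edgeR in spheroids, whereas the ratio of mean CPM was larger for Efna3 (3.86, higher in GFP+), which was under the low-count filter. Epha4 ran from 8.63 through a median of 27.8 to 70.9 CPM in GFP+ libraries, and from 48.5 through 83.5 to 128 CPM in RFP+ libraries. Of the 44 RFP+ libraries, 36 were above every GFP+ library, and no GFP+ library reached the RFP+ median. The means were 30.1 ± 15.1 and 86.7 ± 18.4 CPM (SD, n = 37 and 44), and the log2 fold change was 1.51 (SE 0.11, edgeR adjusted p = 6.5e-22). The means of the 6 RFP+ plate columns ran from 77.7 to 93.3 CPM and those of the 5 GFP+ columns from 24.2 to 36 CPM.

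EphA2 followed the same direction with a smaller difference. Epha2 ran from 3.85 through a median of 15.8 to 38.5 CPM in GFP+ libraries, and from 17.3 through 36.1 to 55.4 CPM in RFP+ libraries. All 44 RFP+ libraries were above the GFP+ median, and 20 were above every GFP+ library. Its log2 fold change was 1.01 (SE 0.13, edgeR adjusted p = 5.8e-11). Cxcr4 ran from 0 through 3.03 to 9.66 CPM in GFP+ and from 5.31 through 11.8 to 29 CPM in RFP+ libraries, a log2 fold change of 1.91 (SE 0.19, edgeR adjusted p = 2.5e-15).

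EphA7 was low in spheroids and differed little between populations. Epha7 ran from 4.76 through a median of 17.4 to 48.3 CPM in GFP+ libraries, and from 1.25 through 13 to 50.1 CPM in RFP+ libraries. The ranges overlapped almost fully, and 23 of 37 GFP+ libraries were above the RFP+ median. The fitted log2 fold change was -0.38 (SE 0.20, edgeR adjusted p = 0.0762). The call was lost without a filter on low counts (adjusted p = 0.119) and with all 7 row pairs of columns 3 and 4 summed (adjusted p = 0.124).

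The ligands Efna5 and Efna4 differed between the spheroid populations in opposite directions. Efna5 ran from 66.4 through a median of 122 to 204 CPM in GFP+ libraries, and from 44.1 through 92.2 to 153 CPM in RFP+ libraries, so the ranges overlapped while 31 of 37 GFP+ libraries were above the RFP+ median. The log2 fold change of Efna5 was -0.48 (SE 0.08, edgeR adjusted p = 2.2e-07). Efna4 ran from 4.2 through 14.9 to 31.4 CPM in GFP+ and from 4.33 through 22 to 40.6 CPM in RFP+ libraries, a log2 fold change of 0.49 (SE 0.13, edgeR adjusted p = 0.00076). Efna1 ran from 0 through 14.8 to 40.6 CPM in GFP+ and from 1.44 through 15.4 to 50.4 CPM in RFP+ libraries, a log2 fold change of -0.066 (SE 0.21, edgeR adjusted p = 0.785). For 4 of the 6 tested members (Epha2, Epha4, Efna4 and Efna5) the means of the RFP+ and GFP+ plate columns did not overlap, beside 54.7% of all tested genes.

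**Figure D3:**
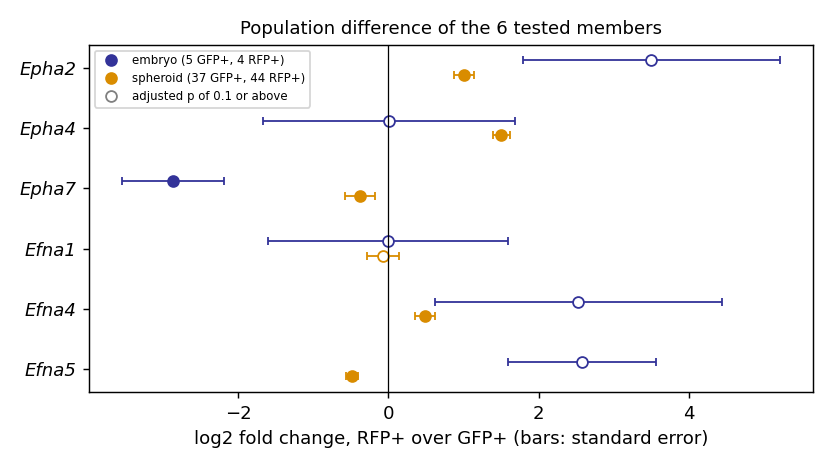
Log2 fold change of RFP+ over GFP+ cells (horizontal axis) for the 6 members tested by edgeR, in embryos (blue, n = 5 and 4) and in spheroids (orange, n = 37 and 44), with bars of 1 standard error and open points where the adjusted p was 0.1 or above. Epha7 is the filled embryo point, at -2.86, and the Efna5 points lie on opposite sides of 0.

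Epha1, Epha3, Epha5 and Efna3 were under the low-count filter in spheroids as well and were compared by permutation of log2 CPM (prior count 2, 100000 resamples, two-sided, unadjusted). Efna3 was higher in GFP+ libraries, at 2.26 ± 1.57 CPM against 0.586 ± 0.81 CPM (SD, n = 37 and 44), a difference in mean log2 CPM of -0.94 with a permutation p of 1e-05, the smallest these resamples can give. Epha3 was at 2.47 ± 3.64 CPM in GFP+ and 0.925 ± 1.72 CPM in RFP+ libraries, a difference of -0.60 (permutation p = 0.0104). Epha1 was at 3.45 ± 3.24 and 1.95 ± 1.69 CPM, a difference of -0.44 (permutation p = 0.0282), which was not past 0.05 with a prior count of 0.5 (permutation p = 0.0628). Epha5 was at 2.08 ± 4.13 and 1.53 ± 2.09 CPM, and the means of log2 CPM differed by 0.020 (permutation p = 0.936). The means of Epha3 and Epha5 rested on few libraries, since their GFP+ maxima were 15.7 and 21.8 CPM and their GFP+ medians 0.984 and 0 CPM.

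The share of libraries with a read differed between the members. Epha7 was read in 100% of the libraries of all 4 groups. Epha2, Epha4, Efna4 and Efna5 were read in 100% of embryo RFP+ and of both kinds of spheroid library, but in 20%, 40%, 20% and 80% of embryo GFP+ libraries. Efna1 was read in 80% and 75% of embryo GFP+ and RFP+ libraries, and in 97.3% and 100% of the spheroid ones. The others were read in fewer of the spheroid libraries, and Epha5 had no read in embryo libraries. Epha1 was read in 89.2% of spheroid GFP+ and 84.1% of spheroid RFP+ libraries, Efna3 in 86.5% and 47.7%, Epha3 in 62.2% and 38.6%, and Epha5 in 45.9% and 61.4%. After thinning every library to 400000 counts these expected shares became 61.8% and 49.8% for Epha1, 55.6% and 19.2% for Efna3, 41.1% and 21.6% for Epha3, and 30.6% and 34.6% for Epha5. The embryo GFP+ shares of Epha2, Epha4, Efna4 and Efna5 were 19.6%, 40%, 20% and 80% at that depth, and those of the other 3 groups were at least 98.8%. Thinning evens out the total counts but not the number of genes detected. That number was 6189 to 8302 in embryo GFP+ libraries, against 10263 to 13052 in embryo RFP+ libraries. Its part in these shares was not tested.

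**Figure D4:**
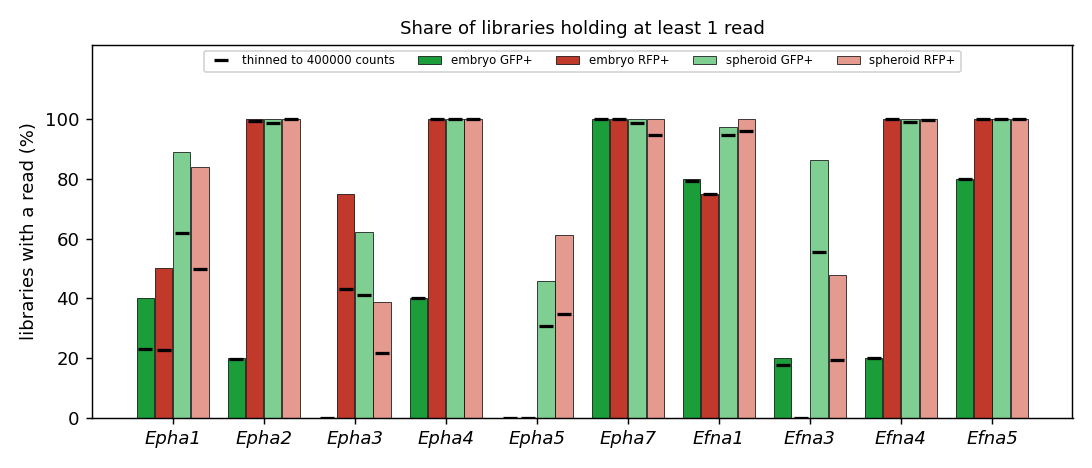
Share of libraries with at least 1 read (bars, percent) for each member in the 4 groups (n = 5, 4, 37 and 44), with black dashes at the expected share after thinning each library to 400000 counts. Epha2, Epha4 and Efna4 are read in every embryo RFP+ library and in 20%, 40% and 20% of embryo GFP+ libraries. Embryo GFP+ libraries also had fewer detected genes of any kind than the other groups.

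The difference between the embryo and spheroid log2 fold changes was tested for the 6 members, with 7 degrees of freedom and adjustment over 8191 genes, of which 5.31% passed. None of the 6 passed, with 2 of them at an unadjusted p under 0.05. Efna5 was 3.06 higher in the embryo comparison (SE 0.99, unadjusted p = 0.0173, adjusted p = 0.217 from the edgeR fits), going from 2.58 in embryos to -0.48 in spheroids. Epha7 was 2.49 lower (difference -2.49, SE 0.71, unadjusted p = 0.00981, adjusted p = 0.148 from the edgeR fits). With 40 degrees of freedom both passed, at adjusted p of 0.0443 and 0.0168. The differences of Epha2 (2.49, SE 1.71), Efna4 (2.04, SE 1.91), Epha4 (-1.49, SE 1.68) and Efna1 (0.065, SE 1.61) were each smaller than 1.5 SE.

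Embryo and spheroid cells of the same population were compared for each member by permutation of log2 CPM, which gave 20 tests with unadjusted p-values. Source also goes with plate column and day, and these cannot be told apart. The same test was not run over all genes, so these values do not set the members apart from other genes. Epha7 was higher in embryo GFP+ cells, 216 against 18.5 CPM, a difference in mean log2 CPM of 3.30 (permutation p = 1e-05, n = 5 and 37). Its lowest embryo GFP+ library, at 60.9 CPM, was above the highest spheroid GFP+ library, at 48.3 CPM. Lower means of log2 CPM in embryo than in spheroid GFP+ cells were found for Epha2 at -3.30 (permutation p = 2e-05), Efna5 at -3.01 (permutation p = 1e-05) and Efna4 at -2.97 (permutation p = 5e-05). The same held for Epha3 at -1.18 (permutation p = 0.039) and Efna3 at -1.01 (permutation p = 0.00922). Epha4 differed by -1.97 (permutation p = 0.0107), but its mean CPM was higher in embryo GFP+ cells, 48.6 against 30.1. Only 2 of 5 embryo GFP+ libraries held Epha4 reads. With a prior count of 0.5, Epha2, Efna4 and Epha4 differed by -4.84, -4.49 and -3.13, so these sizes depend on the prior count. Embryo GFP+ libraries also had fewer detected genes than spheroid GFP+ libraries, 6189 to 8302 against 12837 to 14671, and the part of this in the lower values was not tested.

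In RFP+ cells Epha7 was also higher in embryo cells, 30.1 against 14.2 CPM (difference 1.18, permutation p = 0.0226, n = 4 and 44). Efna5 was higher in embryo cells, 166 against 91.3 CPM (difference 0.86, permutation p = 0.00049). Epha4 was lower in embryo cells (difference -0.83, permutation p = 0.00121), as was Epha2 (difference -0.73, permutation p = 0.0133). Efna4 was 0.58 higher in embryo RFP+ cells (permutation p = 0.0531), and Efna1 was 0.57 higher (permutation p = 0.337).

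Set in order of mean CPM, Epha7 fell from embryo GFP+ (216) through embryo RFP+ (30.1) and spheroid GFP+ (18.5) to spheroid RFP+ (14.2), and its lower 3 groups overlapped. Efna5 ran from embryo RFP+ (166) through spheroid GFP+ (126.2) and spheroid RFP+ (91.3) to embryo GFP+ (26.7). Epha4 was highest in spheroid RFP+ (86.7), then close together in embryo RFP+ (51.5) and embryo GFP+ (48.6), then spheroid GFP+ (30.1). Epha2 went from spheroid RFP+ (36) through embryo RFP+ (24.2) and spheroid GFP+ (17.6) to embryo GFP+ (1.82). Efna4 went from embryo RFP+ (32.8) through spheroid RFP+ (22.9) and spheroid GFP+ (16.1) to embryo GFP+ (6.17). Efna1 was at 43.3 and 41.8 CPM in embryo RFP+ and GFP+ cells and at 17 and 16.5 CPM in spheroid GFP+ and RFP+ cells, and the gap between embryo and spheroid cells was smaller than the SD of either embryo group but not of the spheroid groups. Neighbouring groups that differ in both source and population were not tested against each other.

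Levels can be compared between genes only per length, so CPM was divided by the kilobases of merged exons, from 1.6 kb in Efna4 to 16.7 kb in Epha5. On this scale the make-up of the receptor set differed between groups. Epha7 made up 71% of the summed EphA level in embryo GFP+ cells (21.8 of 30.7 CPM per kb), whereas Epha4 and Epha2 made up 42.7% and 34.6% in embryo RFP+ cells, with Epha7 at 20.4%. In spheroids Epha2 and Epha4 made up 35.3% and 35.1% in GFP+ cells, and 37.4% and 52.3% in RFP+ cells, with Epha7 at 17.6% and 6.99%. The summed receptor level was 30.7 ± 17.5 CPM per kb in embryo GFP+, 15 ± 3.74 in embryo RFP+, 10.7 ± 2.83 in spheroid GFP+ and 20.6 ± 3.33 in spheroid RFP+ libraries (SD).

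The summed ligand level per length was above the summed receptor level in every group except embryo GFP+ cells, where the 2 sums differed by less than 1 SD. It was 33.7 ± 16.9 CPM per kb in embryo GFP+, 85.3 ± 17.8 in embryo RFP+, 51.6 ± 10.9 in spheroid GFP+ and 46.2 ± 11 in spheroid RFP+ libraries (SD). Efna1 made up 67.9% of the ligand level in embryo GFP+ cells, and Efna5 made up 48.2% in embryo RFP+, 60.7% in spheroid GFP+ and 48.9% in spheroid RFP+ cells. Efna4 contributed 11.5%, 24%, 19.5% and 31% in the same order, and Efna3 at most 1.8%. These sums rest on poly(A)-primed cDNA, whose coverage along a transcript may be uneven, so they are approximate. They cover the listed members only and leave out Efna2. The shares of receptors and ligands are of group means and do not hold in every library. In embryo GFP+ library 4, Efna1 had no read and Efna5 was at 45.9 CPM. In the same library Epha4 was at 108 CPM and Epha7, which has more exon bases, at 60.9 CPM.

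**Figure D5:**
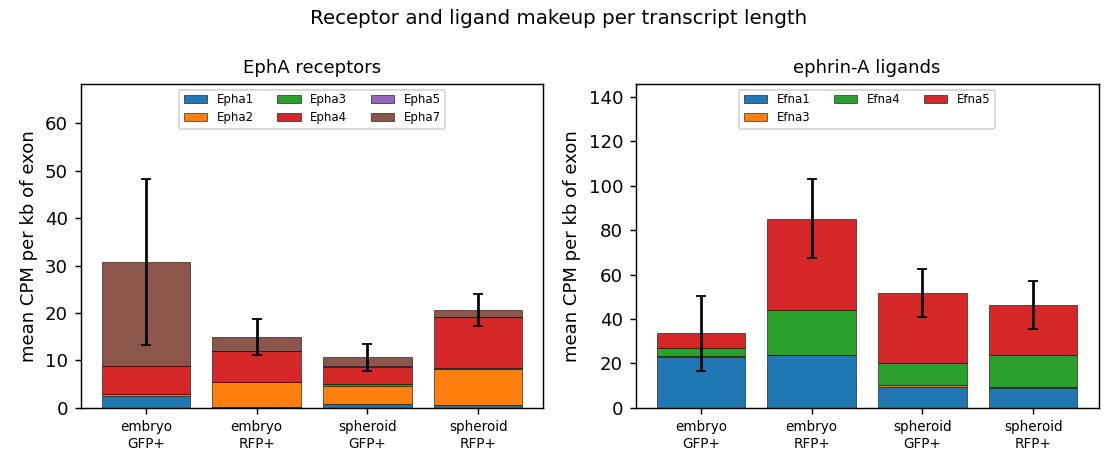
Mean level per length, in CPM per kilobase of merged exon (vertical axes), stacked by gene for the 6 EphA receptors (left) and the 4 ephrin-A ligands (right) in the 4 groups, with bars of 1 SD of the summed level (n = 5, 4, 37 and 44). Epha7 fills 71% of the receptor bar in embryo GFP+ cells, and Efna5 is the largest ligand part in the other 3 groups.

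Within the embryo GFP+ pools, the number of members read was low. Between 1 and 4 of the 6 receptors (median 2) and between 1 and 3 of the 4 ligands (median 2) had a read, against 3 to 5 receptors (median 4.5) and 2 to 3 ligands (median 3) in embryo RFP+ pools. Spheroid libraries of both populations held 3 to 6 receptors (median 5) and 3 to 4 ligands. Detected genes of any kind were also fewer in embryo GFP+ libraries, with a median of 6830, against 12232.5 in embryo RFP+ libraries. The medians were 13717 in spheroid GFP+ and 13021 in spheroid RFP+ libraries. The part of this in the member counts was not tested, so the counts do not set the members apart from other genes.

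Across the 44 spheroid RFP+ libraries the members varied largely apart from each other. Epha2 and Epha4 had a Pearson r of -0.14 (Spearman rho -0.182), Epha4 and Epha7 0.0485 (rho 0.103), and Epha2 and Cxcr4 0.123 (rho 0.16). In the 37 GFP+ libraries the highest value among the members was that of Epha1 and Epha2, at 0.465 (rho 0.462, and 0.493 without the 2 libraries farthest from the median of Epha1). These are descriptions over wells whose plate is not named in the labels, and with library depth Epha2 had r of -0.0696 in RFP+ and 0.141 in GFP+ libraries. Among 9988 genes, the 3 most like Epha2 across RFP+ libraries were Foxc2 (r = 0.606, rho 0.526), Dda1 (r = 0.496) and Pts (r = 0.49). The 3 most like Epha4 were Mphosph9 (r = 0.582), Ybx3 (r = 0.572) and BC052040 (r = 0.505). The 3 most like Epha7 were Bcas3 (r = 0.505), Kpna1 (r = 0.496) and Mtf1 (r = 0.486). Without the 2 farthest libraries these 9 values ran from 0.396 for Pts to 0.584 for Dda1. Each was picked as among the highest of 9988 values over 44 libraries, so its size partly reflects that selection. Whether any exceeds chance was not tested.

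Of the 4 family members outside the list, Epha6, Epha8 and Epha10 had means under the floor of 3 counts in every group, whereas Efna2 was above it. Per length, Efna2 was at 5.67 CPM per kb in embryo GFP+ and 4.19 in embryo RFP+ libraries. In spheroid GFP+ and RFP+ libraries it was at 2.64 and 5.97 CPM per kb. Efna2 was tested in spheroids, where it was higher in RFP+ cells, at 12.7 ± 5.65 against 5.63 ± 4.04 CPM (SD, n = 44 and 37), a log2 fold change of 1.16 (SE 0.19, edgeR adjusted p = 8.5e-08). In embryos Efna2 held reads in 2 of 5 GFP+ and 4 of 4 RFP+ libraries, at 12.1 ± 25.2 and 8.93 ± 4.57 CPM. Epha6, Epha8 and Epha10 had means under 1 CPM in both spheroid populations. Of these, Epha6 was at 0.985 CPM in GFP+ and 0.149 CPM in RFP+ libraries (permutation p = 2e-05), and Epha8 at 0.26 and 0.913 CPM (permutation p = 0.00421).

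The EphB receptors and ephrin-B ligands, which signal through the sister branch of the system, were called about as often as other genes in spheroids. Of 8 genes, 6 were tested, and 5 (83.3%, beside 77.7% of all tested genes) were called, each of them higher in RFP+, with a median log2 fold change of 0.99 beside -0.015 over all tested genes. Efnb1 went from 3.82 ± 2.95 to 12.1 ± 5.14 CPM (log2 fold change 1.63, SE 0.21), Ephb4, the receptor of ephrin-B2 in veins, from 15.4 ± 6.28 to 33.7 ± 11.6 CPM (1.11, SE 0.12), and Efnb2, its ligand, from 61.2 ± 15.3 to 122 ± 22.1 CPM (1.00, SE 0.07). Efnb3 and Ephb2 changed by 0.98 (SE 0.21) and 0.74 (SE 0.20). In embryos 5 of the 8 were tested by edgeR, and 0 were called and 0 had an unadjusted p under 0.05, whereas DESeq2 called 1 of 8, with an edgeR median of -0.17 beside 0.094 over all tested genes.

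Of 37 genes that act in Eph signalling or its shutdown, 27 were tested in embryos and 3 (11.1%, beside 10.1% of all tested genes) were called, each of the 3 higher in GFP+ cells. Grb10, an adaptor that binds activated tyrosine kinases and is also an imprinted growth regulator, was at 2781 ± 743 CPM in GFP+ and 601 ± 69.5 CPM in RFP+ libraries (log2 fold change -2.23, SE 0.24, edgeR adjusted p = 0.00012). Adam10, the protease that cuts ephrin-A ligands from the membrane, was at 293 ± 144 and 89.3 ± 20 CPM (-1.73, SE 0.44, edgeR adjusted p = 0.0258). Rhoa, the small GTPase behind cytoskeletal contraction, was at 438 ± 184 and 199 ± 21.8 CPM (-1.16, SE 0.34, edgeR adjusted p = 0.0594). The median over the 27 was 0.45, of the other sign than the 3 called genes.

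In spheroids 30 of the 37 were tested, with 13 called higher in RFP+, 10 higher in GFP+ and 7 not called, and a median of 0.013. At the GFP+ end, Grb10 went from 28.7 ± 15.1 CPM in GFP+ to 4.39 ± 3.75 CPM in RFP+ libraries (-2.72, SE 0.23), Arhgef16 from 50.8 ± 19.3 to 8.32 ± 7.14 CPM (-2.63, SE 0.20) and Vav3 from 18.1 ± 13.3 to 5.62 ± 6.69 CPM (-1.70, SE 0.29). At the RFP+ end, Pik3r1, the regulatory subunit of PI3-kinase, went from 18.7 ± 11.6 to 72.2 ± 23.2 CPM (1.93, SE 0.15), Sipa1l1, a GTPase-activating protein that switches Rap off, from 25.5 ± 10.1 to 52.9 ± 11.1 CPM (1.04, SE 0.10) and Abl1, a cytoplasmic tyrosine kinase, from 34.9 ± 12.2 to 66.3 ± 16 CPM (0.90, SE 0.09). The called share of this list, 76.7%, was close to the 77.7% of all tested genes. Grb10 was lower in RFP+ cells in both sources, from a level in embryo GFP+ cells far above that in spheroid GFP+ cells.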

How the data were processed

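RNA of 10 sorted cells per well was sequenced. Per the labels and the study's methods, the authors used Trimmomatic 0.36 (quality at least 35, length at least 36), then HISAT2 2.0.4 on mm10 and featureCounts 1.5.2. The deposited values are whole read counts per gene without normalization. The annotation and strand setting are not given in the sources used here. The reads carry no molecular identifiers, so floors of 3 counts cover counting error only.

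Embryo and spheroid counts were fitted separately by edgeR 4.0.16 in R 4.3.3 (TMM, filterByExpr with minimum count 10 and minimum total 15, quasi-likelihood test, Benjamini-Hochberg adjustment over all tested genes, threshold 0.1, the study's own). SEs are the size of the log2 fold change over the square root of the F statistic. Levels are CPM on total counts. Wells of under 100000 counts were left out, and neighbouring wells with a chi-square per degree of freedom under 1.5 were summed. Permutation tests used scipy 1.17.1 on TMM-scaled log2 CPM, exact in embryos and with 100000 resamples elsewhere, and those of embryo members that edgeR also tested were added after the data had been seen. Merged exons came from GENCODE M21. Scripts were tested on simulated data.

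The 10 genes, the gene and marker lists and the tests were chosen with earlier results of these data known. The genes named are the 10, Epha6, Epha8, Epha10, Efna2, the 3 largest and 3 smallest called changes of the EphB and signalling lists, Hcn4, Tbx1, Cxcr4 and the 3 genes most like Epha2, Epha4 and Epha7. Alternatives covered DESeq2 1.42.0, other size factors, total counts, no filter, a threshold of 0.05, each embryo library left out, all libraries, wells summed otherwise, plate row as a block and a prior count of 0.5.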

Additional observations from a re-analysis of the deposited data

Results flagged for a closer look

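In 4 of the 16 sets of 4 or 5 embryo libraries that held any read of a member, the highest library stood far from the others, all among the 5 GFP+ libraries. A gene read in 1 library of a group is marked by construction, as were Epha2, Efna3 and Efna4. The rule's rate of about 1 in 20 by chance does not hold for such sets, so the number marked shows no excess. Epha1 was at 48.1 CPM in GFP+ library 5 and at or under 1 read in the other GFP+ libraries. Epha2 was at 9.11 CPM in GFP+ library 2, Efna3 at 4.08 CPM in GFP+ library 1 and Efna4 at 30.9 CPM in GFP+ library 3, each with 0 in the other GFP+ libraries.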

How the results depend on the processing

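The count of members called in embryos was 1 and became 2 with DESeq2 and 2 without a filter on low counts, where Efna5 was added, and ran from 1 to 3 when 1 library was left out, the 3 coming without GFP+ library 3. In spheroids the count of 5 became 8 with DESeq2, which tested all 10 members, and the test of the difference between sources gave 2 members in place of 0 with 40 degrees of freedom. Over all genes, embryo calls went from 858 to 1945 with DESeq2 and 2000 without a filter, spheroid calls went from 7763 to 10729 with DESeq2 and 13005 without a filter (7 of 10 members), and the difference test went from 435 to 824 with 40 degrees of freedom. The median embryo log2 fold change of all genes was 0.48 with DESeq2 and 0.77 without a filter, against 0.094. Fold changes near 0 in embryos had no stable sign. Epha4 was -0.057 with DESeq2 and -0.062 with its size factors in edgeR, and was -0.31, -0.31, -0.32, -0.065 and -0.30 without GFP+ library 1, 3 or 5 or RFP+ library 1 or 4. Efna1 was 0.057 with total counts and 0.071 without a filter, and was 0.29, 0.25, 0.19, 0.43 and 0.036 without GFP+ library 1, 2 or 5 or RFP+ library 3 or 4. With a prior count of 0.5, Efna1 in embryo minus spheroid GFP+ cells was -0.024, against 0.28. The cause was not tested. Among refitted log2 fold changes, 116 kept their sign and their side of the threshold and 14 changed sign. Epha2 could not be tested without GFP+ library 2, where it fell under the filter.

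No paired analysis was possible because replicate numbers only name wells. With 5 and 4 embryo libraries of 10 cells, SEs on the log2 scale of 1.59 for Efna1 to 1.91 for Efna4 left all but very large differences undetectable for Epha2, Epha4, Efna1 and Efna4.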
